A study of Mus musculus with 2 samples.

Results

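Kupffer cells and other liver macrophages made up 56 of the 10220 barcodes that passed the filters in a single-cell RNA sequencing experiment on mVenus-sorted mouse liver cells. They were chosen by their transcripts. A barcode was taken when it held at least 500 genes, at least 1000 UMIs (unique molecules), under 20% mitochondrial UMIs and at least 4 of the 8 markers C1qa, C1qb, C1qc, Cd5l, Clec4f, Vsig4, Csf1r and Adgre1, with at least 3 UMIs of C1q in all. The other 10164 kept barcodes were mostly hepatocytes (7032 in hepatocyte-like clusters), with 871 conventional dendritic cell-like, 785 endothelial-like, 121 T and NK-like and 92 B-like barcodes.

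The cells came from livers of 3 BL6 mice, which were taken 6 days after injection. Hydrodynamic injection into the tail vein, fast and of a large volume, brings plasmids mainly into hepatocytes. Every mouse received a transposon in which the strong CAGGS promoter drives NRAS followed by an internal ribosome entry site and the fluorescent protein mVenus, together with a transposase plasmid. In 2 mice the insert was NRAS(G12V), an oncogenic form, and in 1 mouse it was NRAS(G12V/D38A), a control form with a second substitution in the region that binds effectors. No mouse without a construct was in the design. The dissociated cells were labelled with 1 hashtag antibody per mouse, a viability dye and an antibody to CD45, which is carried by leukocytes including macrophages. Live single cells were sorted for mVenus and pooled, and no gate on CD45 is given in the sources used here. The samples are labelled as hepatocytes, so the macrophages are cells that passed this sort without being its target, and their number says nothing of their number in the liver. The promoter is not restricted to hepatocytes.

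Kupffer cells are the resident macrophages of the liver. They sit in the sinusoids, where they take up particles, dying red cells and complement-coated microbes from portal blood, recycle iron, and carry surface proteins that few other macrophages have, among them CLEC4F, VSIG4 (a complement receptor) and TIM4. Other liver macrophages arise from blood monocytes, which carry CCR2, or lie in the capsule and around vessels, where CX3CR1 and MHC class II are high.

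The mouse of origin of each cell rests on 3 hashtag oligos, which are shown because the assignment of mice to groups depends on them.
hashtag 1: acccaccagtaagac
hashtag 2: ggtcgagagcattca
hashtag 3: cttgccgcatgtcat
In the deposited table hashtag 1 marks the D38A mouse. In the methods of the study it is hashtag 3 that does so, and the remaining pair marks G12V in either case. Mice are therefore named by hashtag, and values in triplets are in the order of hashtags 1, 2 and 3. Of the 56 macrophages, 16 were called for hashtag 1, 26 for hashtag 2, 10 for hashtag 3, 2 as doublets and 2 as negative. A single hashtag was called for 92.9% of macrophages (exact binomial 95% interval 82.7 to 98.0) and for 36.0% of the other barcodes, but also for 91.5% of endothelial-like, 94.8% of dendritic cell-like and 94.2% of T and NK-like ones. The low share lay with the hepatocyte-like barcodes, at 17.1%.

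Macrophages were 1.98% (1.13 to 3.19) of the 810 kept barcodes of hashtag 1, 1.35% (0.883 to 1.97) of the 1928 of hashtag 2 and 1.03% (0.496 to 1.89) of the 969 of hashtag 3. These intervals overlap. Their UMIs summed to 164038, 257968 and 57271, and the largest single barcode gave 27.5%, 28.1% and 19.0% of them. The median macrophage held 6401 UMIs (range 1131 to 72352) against 4111 in the other barcodes, and 3.72% mitochondrial UMIs against 0.940%. Levels below are CPM, UMIs per 1000000 of a sum of cells, with exact Poisson 95% intervals. All intervals cover counting error alone and not the spread between mice, and with 1 control mouse and 3 mice in all no test was run, since an exact sign-flip test over 3 mice cannot go below p = 0.25. UMIs count molecules at the 3′ end, so levels are not scaled by gene length.

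Of the macrophages, 6 held more than 5% of their UMIs from a list of 10 hepatocyte genes, a limit set after the data were seen. One was from hashtag 1, 3 from hashtag 2, 1 was a doublet and 1 was negative, and among them were the largest barcodes of hashtags 1 and 2. Levels over all members are therefore followed where needed by levels over the other 50, called the macrophages without hepatocyte-rich barcodes. In unsupervised clustering 47 of the 56 fell into 1 cluster of 125 barcodes, which was left unnamed because S100a9 and S100a8, neutrophil genes, led it beside C1qa, Cd5l and C1qc. The other 9 lay in an endothelial-like cluster (3), a dendritic cell-like cluster (2), a T and NK-like cluster (1), a hepatocyte-like cluster (1) and an unnamed cluster led by Cxcl3, Hmga2 and Sema3e (2).

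The genes that define the members had levels in the macrophages that lay far above the rest of the library. These values chose the members and are a description. C1qa, C1qb and C1qc, the 3 chains of the C1q complex that opens the classical complement pathway, stood at 2854, 3036 and 3999 CPM, at 3695, 3661 and 4837 CPM, and at 1665, 1896 and 2986 CPM. In all other barcodes they stood at 0.846, 2.18 and 0.533 CPM. All 3 lie next to each other on chromosome 4 of the mm10 (GRCm38) genome, C1qa at chr4:136895917-136898803, C1qc at chr4:136889804-136893065 and C1qb at chr4:136880129-136886187. C1qb was found in 56 of 56 members and C1qa and C1qc in 55. C1q transcripts were seen elsewhere too, as C1qb had a UMI in 15.03% of endothelial-like and 1.26% of dendritic cell-like barcodes.

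The Kupffer cell markers were less evenly spread. Cd5l, a secreted protein that sustains macrophages and binds lipids (chr3:87357881-87371073), was found in 43 of 56 members at 1768, 1101 and 3335 CPM. Clec4f, a lectin known mainly from mouse Kupffer cells (chr6:83644542-83656187), was found in 34 at 1024, 958 and 3056 CPM. Vsig4 (chrX:96247203-96293438) was found in 30 at 457, 415 and 1467 CPM. The hashtag 3 mouse was thus highest for each of them, with intervals that did not overlap those of the other mice, also without hepatocyte-rich barcodes (Clec4f at 1413, 1371 and 3056 CPM). C1qa did not keep such an order without them, at 3860, 4022 and 3999 CPM, nor did C1qb, at 4920, 4901 and 4837 CPM. Timd4, the phosphatidylserine receptor TIM4 (chr11:46810800-46844332), was not part of the rule and was found in 23 members at 122, 69.8 and 227 CPM. Csf1r, the receptor for the macrophage growth factors CSF1 and IL-34, was found in 46 at 299, 388 and 1013 CPM, and Adgre1, which encodes F4/80, in 42 at 195, 124 and 454 CPM. The plot of marker levels by mouse shows these values with their intervals.

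**Figure D1:**
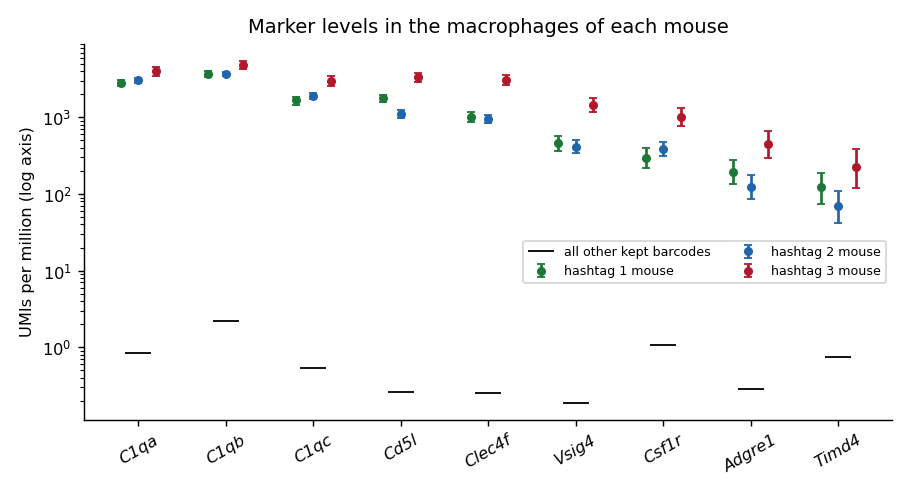
Levels of the 8 defining markers and of Timd4 in the macrophages of each mouse, in CPM on a log axis, with exact Poisson 95% intervals. Dashes give all other kept barcodes. Each gene stands above its dash in all 3 mice, and the hashtag 3 mouse is highest for every gene, which for C1qa and C1qb is not so without hepatocyte-rich barcodes.

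The same genes are given at equal depth as a description, since they chose the members. With each barcode thinned to 2000 UMIs, Clec4f was found in 52.9% (38.5 to 67.1) of the 51 macrophages that were deep enough, in 0 of 635 endothelial-like barcodes (upper bound 0.579%) and in 0 of 846 dendritic cell-like ones (upper bound 0.435%). Vsig4 was found in 43.1% (29.4 to 57.8), against 0.158% and 0%. C1qb was found in 94.1% (83.8 to 98.8), against 9.29% and 0.355%. Near the edge of the rule, 3 members carried exactly 4 markers, with 3 to 27 C1q UMIs, while 15 barcodes with 3 markers stayed outside, with 1 to 8 C1q UMIs. Detection of all 8 markers was the most frequent state among the members, in 17 of 56.

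The promoters of 3 defining genes are shown, since their transcripts carry the description of these cells. The capitals mark GAGGAA, or TTCCTC where it lies on the reverse strand, the core bound by PU.1, the myeloid transcription factor encoded by Spi1. Each is the run of 250 bases before the start of the gene in RefSeq (GRCm38.p6), written 5′ to 3′ on the strand of the gene. C1qb is chr4:136886201-136886450 on the minus strand, Cd5l is chr3:87357631-87357880 on the plus strand and Vsig4 is chrX:96293439-96293688 on the minus strand.
C1qb: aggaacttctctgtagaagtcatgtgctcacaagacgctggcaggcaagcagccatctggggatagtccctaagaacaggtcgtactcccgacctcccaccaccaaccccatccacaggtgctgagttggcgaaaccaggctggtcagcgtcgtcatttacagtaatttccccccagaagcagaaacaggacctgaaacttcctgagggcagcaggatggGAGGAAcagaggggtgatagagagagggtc
Cd5l: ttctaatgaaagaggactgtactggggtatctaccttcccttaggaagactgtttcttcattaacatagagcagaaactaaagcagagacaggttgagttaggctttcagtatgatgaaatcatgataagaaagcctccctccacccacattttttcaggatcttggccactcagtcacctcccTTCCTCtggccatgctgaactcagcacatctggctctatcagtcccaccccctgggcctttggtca
Vsig4: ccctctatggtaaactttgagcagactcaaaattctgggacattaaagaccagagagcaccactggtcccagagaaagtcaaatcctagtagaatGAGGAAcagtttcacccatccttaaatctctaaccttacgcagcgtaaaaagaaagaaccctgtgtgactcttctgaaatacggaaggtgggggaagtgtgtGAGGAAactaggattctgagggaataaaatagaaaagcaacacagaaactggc
The C1qb window held 1 match, which begins 30 bases before the start of the gene, the Cd5l window held 1, at 66 bases, and the Vsig4 window held 2. Of 8 macrophage genes looked up, 6 held the motif on either strand, and Clec4f and Timd4 did not. The windows of C1qc and Fcna, which held it, overlap exons of the same genes. Among all 32851 promoter windows of this length 7639 (23.3%) held the motif. The 8 genes were picked by name, and the difference was not tested. The motif is short, and a match is a run of letters and not a measured site. Spi1 itself stood at 348, 275 and 314 CPM in the macrophages, in 43 of 56 of them, against 29.7 CPM in the other barcodes. Among the latter, the dendritic cell-like barcodes stood at 347 CPM, so this level was not particular to the macrophages.

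Beyond the markers, 567 of 10509 genes (5.40%) were at least 2-fold higher in the macrophages than in all other barcodes in each of the 3 mice, and 360 (3.43%) were at least 2-fold lower. Each ratio was taken against the other barcodes called for the same hashtag, 3655 of the 10164. They held 1200 of the 7032 hepatocyte-like and 826 of the 871 dendritic cell-like barcodes. Levels given for other barcodes or elsewhere are over all 10164. With TMM scaling, which moved each ratio down by 0.33 to 0.34 on the log2 scale, the counts were 408 and 600. The members were chosen on this contrast, so these counts are given without a test. The medians over all tested genes were 0.02, 0.07 and -0.44 on the log2(CPM + 1) scale.

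The genes furthest above the rest of the library were surface and secreted proteins of macrophages. Wfdc17, a secreted antiprotease-like protein, stood at 3671, 2699 and 5396 CPM and was found in 53 of 56 macrophages, against 3.03 CPM elsewhere. Folr2, the folate receptor of tissue macrophages, stood at 360, 384 and 1083 CPM in 30 cells, against 0.0705 CPM. Fcna, ficolin A, a lectin of the complement system, stood at 354, 299 and 1170 CPM in 31 cells. All of these were highest in the hashtag 3 mouse. Fabp7, a fatty acid binding protein, stood at 152, 233 and 524 CPM in 26 cells, and Cfp, properdin, which stabilises the complement convertase, at 720, 380 and 856 CPM in 42 cells. Lyz2, lysozyme, stood at 3823, 3773 and 4453 CPM in 55 cells, but also at 282 CPM in dendritic cell-like barcodes.

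The remaining genes of this kind fall into a few families. Receptors for IgG were represented by Fcgr3 (177, 186 and 349 CPM), Fcgr1 (97.6, 93.1 and 227 CPM) and Fcgr4 (226, 194 and 122 CPM), and lectin or paired receptors by Clec4a3, Clec4a2, Clec4n, Lilra5 and Cd300ld. Chemokines were represented by Ccl6 (421, 574 and 472 CPM in 47 cells), Ccl24 (91.5, 322 and 524 CPM in 24 cells), a ligand of CCR3, and Pf4 (91.5, 124 and 524 CPM in 23 cells). Spic, the transcription factor of iron-recycling macrophages, stood at 140, 178 and 157 CPM in 24 cells. Trem2, a lipid-sensing receptor, stood at 85.4, 113 and 52.4 CPM in 23 cells, against 0.0313 CPM elsewhere. Ms4a7, C3ar1 (the C3a receptor), Pltp (phospholipid transfer), Il18bp (the IL-18 decoy) and Lst1 complete the 25.

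Gene lists were then read by role, each as the number of tested members at least 2-fold higher in each mouse, against the 5.40% of all genes. In this reading the calls are over all macrophages unless stated, while levels by mouse are without hepatocyte-rich barcodes. Of the Kupffer cell identity list, 16 of 20 were higher and 0 lower. Clec4f, Vsig4 and Cd5l had chosen the members, and outside the rule it was 13 of 17, with median ratios of 4.53, 5.12 and 3.90 (log2). The 4 that did not pass were Cd163, Cdh5, Id1 and Slc16a9. Cd163, the haemoglobin scavenger receptor, had 25 UMIs in 9 cells and none in hashtag 1. Cdh5, an endothelial cadherin also seen in Kupffer cells, stood at 654 CPM in endothelial-like barcodes, and in 25 macrophages. Of the macrophage transcription factors 9 of 20 were higher, among them Zeb2 (387, 509 and 576 CPM without hepatocyte-rich barcodes, against 5.77 CPM elsewhere) and Nr1h3, the liver X receptor (252, 341 and 122 CPM). Maf was not, with ratios of 2.88, 3.59 and -0.32 (log2) and 1466 CPM in endothelial-like barcodes.

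Complement genes were higher for 8 of 16, of which C1qa, C1qb, C1qc and Vsig4 had chosen the members, and for 4 of 12 outside the rule. Those that did not pass included C3 and C4b, which hepatocytes also make. Of the scavenger and lectin receptors 6 of 14 were higher, namely Marco, Msr1, Cd68, Clec4f, Clec4n and Clec1b, or 5 of 13 without Clec4f, a gene of the rule. Mrc1, Stab1 and Stab2 were not, and their levels in endothelial-like barcodes were 1147, 736 and 658 CPM. Fc receptors were higher for 5 of 7, led by the common chain Fcer1g at 2027, 2540 and 2340 CPM without hepatocyte-rich barcodes. Of the lysosomal genes 14 of 22 were higher, among them the cathepsins Ctsb (3288, 3603 and 3842 CPM, against 237 CPM elsewhere) and Ctss (1598, 1482 and 1729 CPM, against 27.2 CPM).

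For the clearance of dying cells 8 of 16 genes were higher. Levels by mouse in this paragraph are without hepatocyte-rich barcodes, while the calls and the cell count are over all members. The higher genes included the receptors Timd4, Trem2 and Axl (202, 453 and 419 CPM) and the adaptor Tyrobp (2313, 2199 and 2637 CPM, found in 55 cells). Mertk, the related receptor, did not pass, and stood at 75.7, 89.5 and 122 CPM, with 125 CPM in endothelial-like barcodes. Mfge8, a bridging protein, was lower, and Tyro3 had no UMI. In iron and haem handling 5 of 14 were higher, among them Hmox1, haem oxygenase (1135, 403 and 681 CPM), and Slc40a1, the iron exporter ferroportin (715, 615 and 1275 CPM, against 77.8 CPM elsewhere). The ferritin chains Ftl1 and Fth1 did not pass, with Ftl1 at 14050, 15950 and 9010 CPM and at 9141 CPM in the other barcodes. Nor did Apoe among the lipid genes, at 17520, 19800 and 20670 CPM against 20220 CPM. Of that list 7 of 16 were higher, among them Lpl, lipoprotein lipase, at 421, 504 and 716 CPM.

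Cytokines were higher for 10 of 17, and Nos2 had no UMI. Chemokines were higher for 8 of 17, and Cxcl3 was lower. Antigen presentation passed for only 2 of 16 genes, H2-DMa and Cd86, although H2-Aa, H2-Ab1 and H2-Eb1, the MHC class II chains, reached 4701, 4196 and 2165 CPM, 5433, 4520 and 1956 CPM, and 5962, 4033 and 1537 CPM. The dendritic cell-like barcodes, at 8884, 9736 and 10380 CPM for the same genes, stand among the other barcodes. Pattern recognition genes were higher for 5 of 13, interferon response genes for 6 of 20, and checkpoint and T cell ligands for 8 of 12. Among the last were Cd274, which encodes PD-L1, at 92.5, 134 and 52.4 CPM in 18 cells, and Sirpa, the receptor for the CD47 signal, at 261, 358 and 472 CPM in 43 cells. In the growth factor list 2 of 14 passed, Csf1r, a gene of the rule, and Acvrl1, and Il34 had no UMI. Of the cell cycle genes 1 of 17 passed, Pcna, and Mki67 was found in 4 macrophages. Of the dissociation stress genes 3 of 18 passed, Fosb, Hspa1b and Nr4a1.

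The most abundant genes of each list, which were named whether they passed or not, show how much of a list other liver cells share. Among the transcription factors these were Id3 (1312, 1220 and 2759 CPM, against 305 CPM elsewhere), Jun (1144, 744 and 1048 CPM, against 634 CPM), Fos (732, 794 and 2008 CPM, against 561 CPM) and Cebpb (715, 766 and 1222 CPM, against 319 CPM). Of these, Id3, an inhibitor of helix-loop-helix factors from the Kupffer cell identity list, passed over all members. It also stood at 1285 CPM in endothelial-like barcodes. Without hepatocyte-rich barcodes, the cells of the values by mouse, Cebpb passed as well. Lgals3, galectin-3, stood at 1875, 3116 and 437 CPM and at 2700 CPM in dendritic cell-like barcodes, and Psap, a precursor of lysosomal activators, at 2439, 2406 and 1659 CPM and at 2632 CPM there. Cd68, a lysosomal glycoprotein of macrophages, stood at 505, 604 and 384 CPM, against 11.4 CPM elsewhere. Cd300a, an inhibitory lipid receptor, stood at 320, 235 and 157 CPM, and Ctsd, cathepsin D, at 1051, 1835 and 1781 CPM, against 304 CPM elsewhere.

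Trf, transferrin, and Spp1 and Fabp5, from the list of lipid handling and lipid-associated macrophages, were lower in the macrophages than in the other barcodes on average. Trf stood at 723, 1046 and 1013 CPM against 10110 CPM, Spp1 at 278, 1611 and 227 CPM against 5492 CPM and Fabp5 at 891, 464 and 332 CPM against 1613 CPM. Of these, none passed in all 3 mice. For Spp1, 1 cell gave 194 of the 288 UMIs of hashtag 2. Cd14, the lipopolysaccharide co-receptor, stood at 135, 358 and 803 CPM against 49.5 CPM, while Ifih1, Ly96 and Nlrp3 stayed between 16.8 and 157 CPM. The interferon-induced genes Ifitm3 and Ly6e stood at 2060, 1874 and 2200 CPM and at 1539, 1248 and 1624 CPM, and Ifi27l2a at 1118, 783 and 681 CPM, against 13.1 CPM elsewhere. Bmp2 stood at 0, 55.9 and 419 CPM and at 1052 CPM in endothelial-like barcodes.

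In the list of monocyte-derived and capsular macrophages 4 of 14 genes were higher, Plac8, Cx3cr1, Ms4a7 and Itgal, and 2 were lower, Fn1 and S100a6. Vcan, Cd226 and Cd209a had no UMI. Plac8 stood at 395, 291 and 245 CPM, Cd52 at 1573, 1287 and 664 CPM and S100a6 at 75.7, 1281 and 122 CPM, against 2446 CPM for S100a6 elsewhere. Cx3cr1 stood at 33.6, 44.8 and 34.9 CPM, against 1.40 CPM. The stress genes Hspa8, Zfp36, Junb and Hspa1b stood at 1833, 1729 and 1345 CPM, at 1085, 1270 and 2462 CPM, at 1085, 1348 and 1799 CPM, and at 2136, 576 and 699 CPM. Cd47, the ligand of SIRPA, stood at 278, 352 and 384 CPM and at 345 CPM elsewhere, and was thus as abundant outside the macrophages as within them.

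Under TMM scaling the counts, rule genes included, of the identity, complement, scavenger, Fc receptor and chemokine lists were 15, 8, 6, 5 and 8. Those of the antigen presentation, cell cycle and dissociation stress lists were 0 each, that of the growth factor list was 1 and that of the interferon list 4.

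Markers of other cells were checked in the macrophages without hepatocyte-rich barcodes. Neutrophil genes were nearly absent, with S100a9, Cxcr2, Retnlg, Mmp8 and Ly6g at 0 UMIs in all 56 members and S100a8 at 1 UMI among them. Of the monocyte markers Vcan, Ly6c2 and Chil3 were at 0, while the hepatocyte-rich barcodes held 1 UMI of Ly6c2 and 9 of Chil3, and the summed list stood at 530, 369 and 279 CPM. The B cell gene Ms4a1, the T cell gene Cd4 and the dendritic cell gene Flt3 were at 0, but other genes of their lists were not. The B cell list held 22 UMIs in 10 of 50 cells, at 126, 33.6 and 17.5 CPM. The conventional dendritic cell list held 98 UMIs in 20 of 50 cells, at 446, 213 and 105 CPM. Xcr1 and Clec9a, markers of cross-presenting dendritic cells, had 9 and 19 UMIs in 3 and 7 cells. Summed T and NK genes stood at 8.41, 190 and 0 CPM, and 1 barcode gave 94.1% of those of hashtag 2. The endothelial list stood at 303, 1320 and 3789 CPM, against 14440 CPM in endothelial-like barcodes, and 1 cell gave 50.2% of the hashtag 3 value. The hepatocyte list stood at 6475, 4347 and 5011 CPM, against 80620 CPM in the other barcodes.

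The 56 barcodes were next split by 4 Kupffer cell markers, Clec4f, Vsig4, Cd5l and Timd4. At least 1 of them was found in 82.1%, at least 2 in 62.5% (48.6 to 75.1) and all 4 in 32.1%. Thinned to 2000 UMIs, the share with at least 2 was 52.9% (38.5 to 67.1). Members with at least 2 are called Kupffer-marker macrophages here and those with fewer are called other macrophages. This is a split of a range rather than of types, since 11 members held 1 marker and 4 held 2. By mouse the Kupffer-marker share was 8 of 16, 17 of 26 and 7 of 10, which is 50% (24.7 to 75.4), 65.4% (44.3 to 82.8) and 70.0% (34.8 to 93.3). The intervals overlap widely.

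MHC class II ran against these markers. From 0 to 4 markers the members numbered 10, 11, 4, 13 and 18, and their median H2-Aa level was 79.6, 32.1, 48.4, 8.84 and 1.77 UMIs per 10000. Members without any H2-Aa UMI numbered 0, 1, 0, 4 and 7. H2-Aa was no part of the rule or of the split. The plot of H2-Aa against marker number gives every barcode. The points share their libraries and differ in depth, with median UMIs of 7827, 7854, 23436, 2461 and 5148, so the relation is a description.

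**Figure D2:**
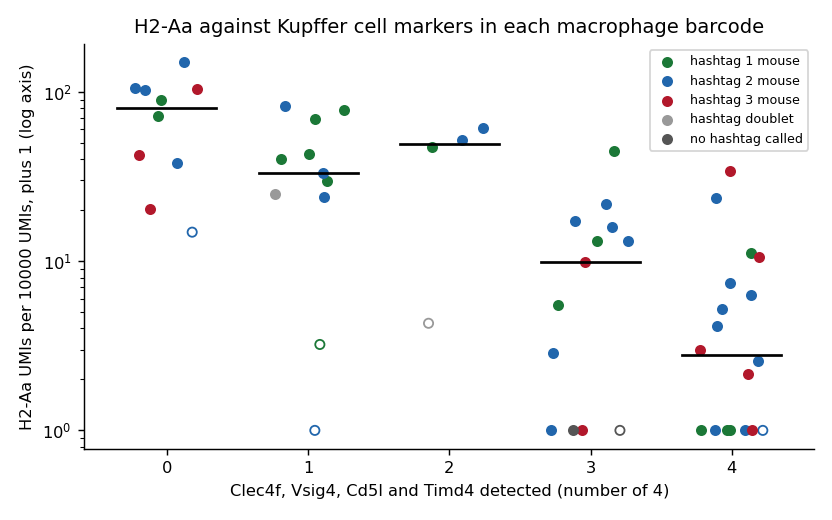
H2-Aa level of each of the 56 macrophage barcodes (UMIs per 10000 plus 1, log axis) by how many of Clec4f, Vsig4, Cd5l and Timd4 it held, coloured by hashtag, with open symbols for hepatocyte-rich barcodes. Bars are medians, from 79.6 with 0 markers to 1.77 with 4 markers. Points of each mouse lie at both ends.

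For the comparison of the 2 classes, doublets and hepatocyte-rich barcodes were left out. This gave 32 Kupffer-marker macrophages (8, 16 and 7 by mouse and 1 negative; 199910 UMIs) and 17 other macrophages (7, 7 and 3; 161438 UMIs). H2-Aa stood at 2606, 1958 and 919 CPM in the former and at 6666, 7111 and 4100 CPM in the latter. H2-Ab1 stood at 2624, 2077 and 1034 CPM against 8067, 7703 and 3387 CPM, and H2-Eb1 at 2832, 1760 and 488 CPM against 8899, 6995 and 3164 CPM. All 3 genes were thus more than 2-fold lower in the Kupffer-marker macrophages of each mouse, and every interval was apart. Cd74, the invariant chain that chaperones MHC class II, stood at 8219, 4954 and 2038 CPM against 15940, 13990 and 8913 CPM. By cell, H2-Aa ran from 0 to 60.4 (median 4.92) UMIs per 10000 in Kupffer-marker macrophages and from 19.3 to 148 (median 67.9) in the others, so the ranges overlap. Kept to the cluster that held most macrophages, a choice made after the data were seen, H2-Aa was 2606, 2058 and 919 CPM against 6023, 6584 and 10280 CPM, the last from 1 cell.

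C1q was high in both classes. C1qa stood at 5386, 4588 and 5340 CPM in Kupffer-marker macrophages against 2428, 3285 and 1916 CPM, and C1qb at 4882, 5508 and 6546 CPM against 4955, 4109 and 2184 CPM. For C1qb the hashtag 1 values were close. Csf1r stood at 761 CPM over the Kupffer-marker macrophages and at 291 CPM over the others. All 17 of the latter held C1qa, C1qb and C1qc, and 16 held Csf1r. These counts are largely fixed by the rule that chose the members and are a description. A barcode with few Kupffer cell markers could pass that rule mainly through C1qa, C1qb, C1qc, Csf1r and Adgre1.

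Over all genes 1955 of 9157 (21.3%) were at least 2-fold higher and 1859 (20.3%) at least 2-fold lower in the Kupffer-marker class as a whole, and 273 (2.98%) and 142 (1.55%) within each of the 3 mice. Against this, 8 of the 16 identity genes outside the split were higher in each mouse and 0 lower. These were Marco, Folr2, Slc40a1, Il18bp, Fabp7, C6, Hpgd and Kcna2. Id3 and Id1 of the same list were lower over the class by less than 2-fold, at 1346 against 1735 CPM and at 250 against 483 CPM. Marco, a scavenger receptor for bacteria and particles, had 70 UMIs in 10 Kupffer-marker macrophages and 0 in the others, which is 350 CPM (273 to 443) against an upper bound of 22.9 CPM. By mouse it was 261, 29.7 and 1292 CPM. Fabp7 had 120 UMIs in 23 cells against 1 UMI, or 434, 554 and 861 CPM against 0, 12.9 and 0 CPM. C6, a component of the membrane attack complex, had 35 UMIs in 15 cells against 0. Folr2 stood at 1066 CPM against 24.8 CPM over the class and Slc40a1 at 1161 CPM against 242 CPM.

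Genes with the largest fold in the same direction also included Cd163 (25 UMIs in 9 cells), Pcolce2, a procollagen processing enhancer (17 UMIs in 10 cells), and Tmem26, Scamp5, Scd1, Ubfd1 and Arg2 (10 or 11 UMIs each), all with 0 UMIs in the other macrophages. Ccl24, at 631 CPM in 22 cells against 24.8 CPM in 2, and Hmox1, at 1056 against 229 CPM, were higher within each mouse too. So were Fcna (996 against 18.6 CPM), Cfp (1091 against 291 CPM), Pltp (450 against 55.8 CPM), Lrp1 (220 against 49.6 CPM) and Mertk (120 against 49.6 CPM). Folr2 and Fcna, which led the contrast with all other barcodes, were thus found mainly in the Kupffer-marker class, whereas Wfdc17 (5710 against 2645 CPM), Fcgr1 (155 against 143 CPM) and Lyz2 (4709 against 3804 CPM) were high in both.

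**Figure D3:**
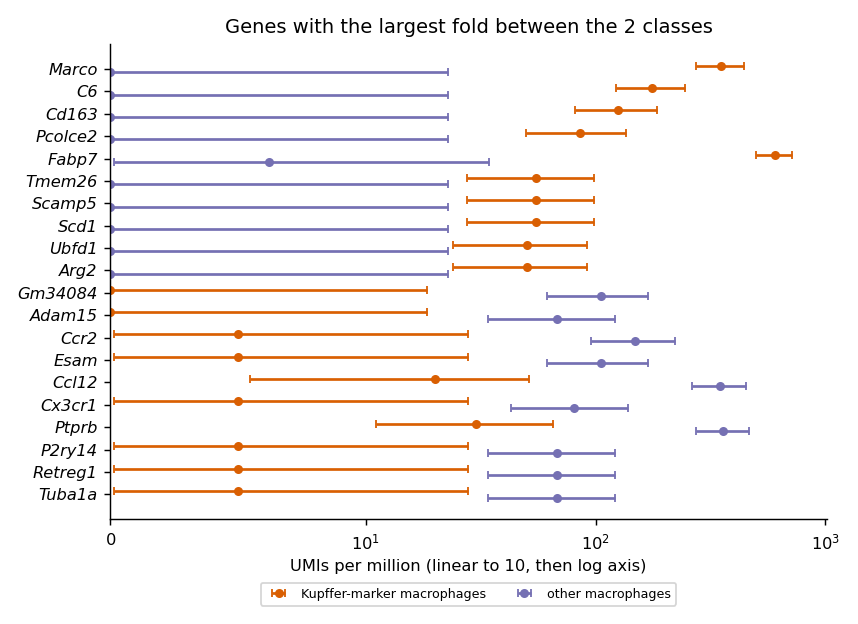
The 10 genes with the largest fold in each direction between 32 Kupffer-marker and 17 other macrophages, in CPM (linear to 10, then log) with exact Poisson 95% intervals. Marco and Fabp7 stand at 350 and 601 in the first class, and Ccl12 and Ptprb at 347 and 359 in the second.

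In the opposite direction the largest folds were those of Gm34084 (17 UMIs in 5 other macrophages against 0), Adam15 (11 in 5 against 0), Ccr2, Esam, Ccl12, Cx3cr1, Ptprb, P2ry14, Retreg1 and Tuba1a. Ccr2, the receptor that brings monocytes out of the marrow, had 24 UMIs in 7 other macrophages and 1 UMI in 1 Kupffer-marker macrophage, and stood at 245, 116 and 0 CPM by mouse. Cx3cr1, the fractalkine receptor, had 13 UMIs in 8 cells against 1 in 1, and stood at 65.2, 90.2 and 89.1 CPM. It was the one gene of the monocyte-derived list that passed within each mouse. Ptprb and Esam are endothelial genes. Ptprb reached 1872 CPM in hashtag 3, where the endothelial list summed to 9047 CPM in the 3 other macrophages and to 402 CPM in the 7 Kupffer-marker ones, and the part of endothelial transcripts in these values was not tested. Ccl12, a CCR2 ligand, likewise rested on hashtag 3, at 114, 51.5 and 2006 CPM.

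Genes were then read together in single cells. Of the 23 members with Timd4, 22 held Clec4f, 23 held Cd5l, 19 held Vsig4 and 19 held Folr2, whereas 0 held Cx3cr1 and 0 held Ccr2. Of the 33 without Timd4, 11 held Cx3cr1 and 11 held Ccr2. All 10 members with Marco held Clec4f, Cd5l and Folr2. All 9 with Cd163 held Clec4f, Vsig4 and Cd5l. All 11 members with Cx3cr1 and all 11 with Ccr2 held H2-Aa, and 6 held both receptors. H2-Aa was also held by 33 of the 45 members without Cx3cr1 and by 33 of the 45 without Ccr2. Ccr2 was seen in 3 of the 34 members with Clec4f and in 0 of the 30 with Vsig4. In sparse counts the absence of a UMI does not show the absence of a transcript.

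For lists of uptake genes the classes were set side by side, without the 4 genes of the split. The complement list kept C1qa, C1qb and C1qc, which chose the members and made up most of its sum. They stood at 4884, 5404 and 3283 CPM in Kupffer-marker macrophages and at 2769, 4163 and 1623 CPM in the others. Summed CPM was 15470 against 9478 for complement, 24940 against 18050 for lysosomal genes and 4334 against 2961 for clearance, and in each of these the Kupffer-marker value was the higher in all 3 mice. By gene, only 2 of 14, 0 of 22 and 2 of 15 of them were at least 2-fold higher within each mouse. By cell, the lysosomal sums overlapped, at 88.4 to 454.5 against 57.1 to 416.4 UMIs per 10000. A single cell gave 42.1% of the hashtag 1 Kupffer-marker sum of lysosomal genes. For scavenger receptors summed CPM was 4824 against 4250, and by mouse 3406, 5478 and 5455 against 4091, 4792 and 2808 CPM, so hashtag 1 had the opposite direction. With Clec4f, a gene of the split, that sum was 7841 against 4262 CPM. Antigen presentation went the other way, at 25090, 20020 and 13060 CPM against 49680, 46610 and 27050 CPM. Of its 16 genes 3 were lower within each mouse, H2-Aa, H2-Ab1 and H2-Eb1, and 1 was higher, Cd40, with 11 UMIs in all members. B2m, the light chain of MHC class I, was equal at 3738 and 3754 CPM. The plot of list sums shows all 3 mice in both classes.

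**Figure D4:**
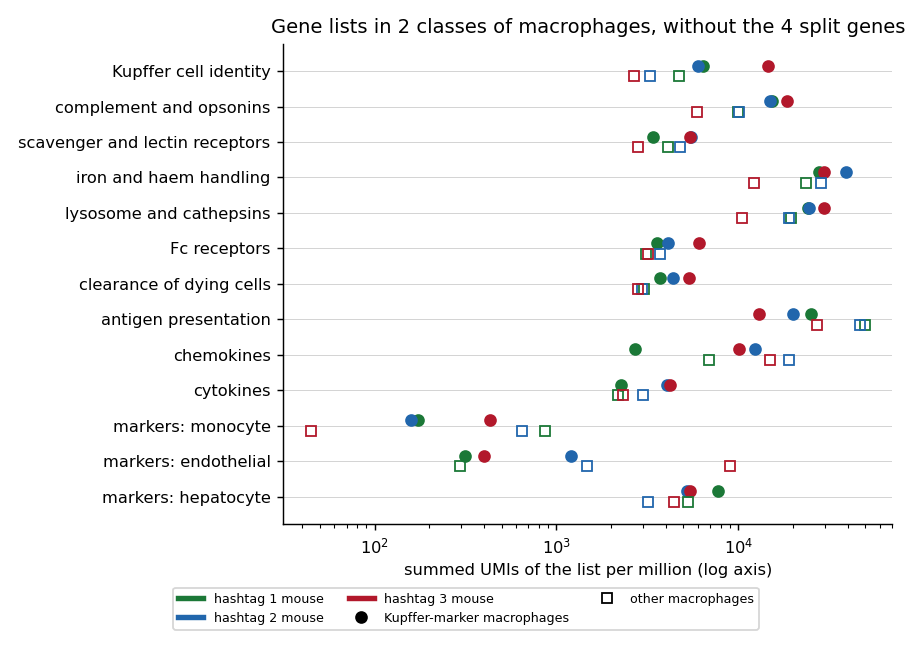
Summed level of gene lists (CPM, log axis) in Kupffer-marker macrophages (filled circles) and other macrophages (open squares) of each mouse, coloured by hashtag. The 4 genes of the split are left out. Identity genes lie at 6002 to 14610 against 2674 to 4694, antigen presentation at 13060 to 25090 against 27050 to 49680, and the endothelial list stands apart in the other macrophages of hashtag 3.

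The macrophages also expressed inflammatory mediators, and here the mice were far apart. Ccl4, a chemokine of the CC family, stood at 1825 (1590 to 2085), 5398 (5063 to 5750) and 4261 (3743 to 4830) CPM without hepatocyte-rich barcodes. Cxcl2, a neutrophil attractant, stood at 866 (707 to 1051), 3547 (3276 to 3834) and 2287 (1913 to 2714) CPM. Both were lowest in the hashtag 1 mouse. Cxcl10, induced by interferon, stood at 244, 1018 and 1187 CPM and Ccl3 at 345, 1085 and 733 CPM. The cytokines Il1b, Tnf and Il1a had the same order of the first mouse against the rest, at 244, 1024 and 716 CPM, at 160, 599 and 559 CPM, and at 151, 420 and 367 CPM. Igf1, a growth factor of resident macrophages, did not differ in this way, at 362, 325 and 367 CPM. Within the other macrophages hashtag 1 was not the lowest for Tnf (293, 1082 and 267 CPM) or Il1a (228, 103 and 357 CPM). It was the lowest there for Il1b, and in Kupffer-marker macrophages for each of these cytokines. In hashtag 2, 1 cell gave 81 of the 183 UMIs of Il1b, and 1 cell gave 51 of the 107 of Tnf.

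The 17 chemokines summed to 4886 (4497 to 5300), 15290 (14730 to 15880) and 12050 (11170 to 12980) CPM. By cell the medians were 33.6, 71.8 and 103 UMIs per 10000, with ranges of 4.96 to 248, 0 to 522 and 18.1 to 259 that overlap over most of their length. A single cell gave 43.4% of the hashtag 1 sum, 17.3% of the hashtag 2 sum and 29.1% of the hashtag 3 sum. The order was the same within Kupffer-marker macrophages (2693, 12340 and 10160 CPM) and within the others (6943, 19140 and 14970 CPM). In the cluster that held most macrophages it was 5488, 16500 and 10640 CPM. Pooled over mice, Ccl3 and Ccl4 stood at 1264 and 5575 CPM in the other macrophages against 385 and 2817 CPM, and Cxcl10 at 409 against 1156 CPM, but none of them was 2-fold apart in the same direction within each mouse. The dissociation stress list, which protease digestion can raise, summed to 13800, 11310 and 14410 CPM, with 37.7% of the hashtag 1 value from 1 cell. It stood at 7020, 10220 and 15590 CPM in Kupffer-marker macrophages and at 20160, 12730 and 12570 CPM in the others, and its part in the chemokine levels was not tested.

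Whether oncogenic NRAS alters liver macrophages was asked by setting the G12V mice against the D38A mouse. In the deposited pairing, with hashtag 1 as D38A, 1177 of 9739 genes (12.1%) were at least 2-fold higher and 959 (9.85%) at least 2-fold lower in each G12V mouse. In the methods' pairing, with hashtag 3 as D38A, 2170 (22.3%) were higher and 2082 (21.4%) lower. Between single mice 3322 of 8664 genes were 2-fold apart for hashtags 1 and 2, 5445 of 9190 for hashtags 1 and 3 and 5096 of 8958 for hashtags 2 and 3. The hashtag 3 mouse, with the fewest cells, thus differed most from both others. Both pairings use the same 3 sums of 16, 26 and 10 cells and share them, and differences between constructs, between mice and in cell make-up cannot be told apart.

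For the lists, the deposited pairing put 8 of 17 chemokines higher in each G12V mouse and 0 lower, namely Ccl3, Ccl4, Ccl5, Ccl24, Cxcl1, Cxcl2, Cxcl10 and Cxcl13. It put 5 of 17 cytokines higher (Il1a, Il1b, Il10, Tnf and Pdgfb) and 1 lower (Il12b), and 6 of 13 pattern recognition and 6 of 20 interferon response genes higher. The interferon genes were Isg15, Ifit1, Rsad2, Usp18, Stat2 and Gbp2. The methods' pairing gave 3 chemokines higher and 3 lower, and 12 of 20 identity genes lower in each G12V mouse, among them Clec4f, Vsig4, Marco and Folr2. Without hepatocyte-rich barcodes that count was 8 lower and 1 higher. It also gave 7 of 17 cell cycle genes higher, all at 0 UMIs in hashtag 3 and at low counts in the others. The lists that stand out thus change with the pairing. The identity list summed to 10160, 8447 and 18020 CPM without hepatocyte-rich barcodes and to 15330, 12270 and 27910 CPM among Kupffer-marker macrophages, so the hashtag 3 mouse was highest there. In the other macrophages it was lowest, at 5313, 3465 and 2674 CPM.

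Many of the single genes furthest apart between mice are known from other cells. In the deposited pairing the 5 furthest up were Fcgr2b, Egfl7, Fabp4, Eng and Adgrl4, genes known from liver endothelium. Of these, Fcgr2b is also in the Fc receptor list and Fabp4 in the list of lipid handling and lipid-associated macrophages. Fcgr2b had 0, 48 and 27 UMIs in 0, 6 and 3 cells, and Eng had 0, 29 and 23 UMIs in 0, 4 and 2 cells. In the cluster that held most macrophages Fcgr2b was at 0, 119 and 51.8 CPM and Fabp4 at 0, 119 and 25.9 CPM. Eng was at 0, 131 and 0 CPM there, and Egfl7 and Adgrl4 were also at 0 in hashtag 3. The endothelial list moved with the 5 genes over all members, as given above, and its part was not tested. The 5 furthest down were Galnt7, H2-Ob, Saa1, Inpp5f and Ifrd2, with 7 or 8 UMIs in hashtag 1 and 0 elsewhere. In the methods' pairing the 5 furthest up were the hepatocyte genes Hpx, Plg, Gamt, Fn1 and Ugt2b5. Hpx had 150 and 195 UMIs in hashtags 1 and 2, of which 137 and 174 came from 1 barcode each, and 0 in hashtag 3. The 5 furthest down were Dcn, Mxra8, Sos2, Ushbp1 and Col14a1, with 4 to 6 UMIs in hashtag 3 and 0 elsewhere, and Dcn, Mxra8 and Col14a1 each came from 1 cell.

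The construct was then looked up in the macrophages, since they had passed a sort for mVenus. The 56 barcodes held 18 mVenus UMIs in 4 cells, which is 32.1 CPM (19.1 to 50.8) and 7.14% of cells (1.98 to 17.3). By mouse there were 8, 10 and 0 UMIs. Without hepatocyte-rich barcodes 8 UMIs remained in 1 of 50 cells, or 21.4 CPM (9.25 to 42.2). Endothelial-like barcodes stood at 20.2 CPM (15.5 to 25.8), dendritic cell-like ones at 16.3 CPM and hepatocyte-like clusters at 21.6 CPM. The unnamed cluster led by Cxcl3 and Hmga2, which holds 10 of 10 hepatocyte markers, stood at 121 CPM (118 to 124) with a UMI in 53.2% of 1134 barcodes. The macrophage level was thus below that of this cluster, and its interval without hepatocyte-rich barcodes covered the levels of the endothelial-like, dendritic cell-like and hepatocyte-like barcodes. T and NK-like barcodes stood at 2.02 CPM (0.0512 to 11.3). At 2000 UMIs per barcode an mVenus UMI was found in 1.96% (0.0496 to 10.5) of macrophages, 3.62% of endothelial-like and 0.591% of dendritic cell-like barcodes.

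The 1 macrophage with mVenus that was not hepatocyte-rich is described because all 8 UMIs came from it. It was a hashtag 2 barcode of 12715 UMIs with all 4 Kupffer cell markers, 56 UMIs of Nras, 38 of Alb and 1.32% of its UMIs from the hepatocyte list. The mouse Nras row takes up reads of the construct. Over all macrophages Nras stood at 259 CPM (219 to 305), with 207, 399 and 34.9 CPM by mouse, and without hepatocyte-rich barcodes at 67.3, 431 and 34.9 CPM. The part of hepatocyte material in this barcode was not tested.

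Hepatocyte transcripts were present in every macrophage. They made up a median of 0.542% of UMIs (range 0.124 to 22.0), against 3.55% in hepatocyte-like, 0.904% in endothelial-like, 0.306% in dendritic cell-like, 0.764% in T and NK-like and 1.18% in B-like barcodes. The median in macrophages was therefore between those of other cells that should lack these genes. Alb was found in 55 of 56 macrophages and Ttr in 56. The 4 barcodes with an mVenus UMI comprised 3 of the 6 hepatocyte-rich ones. The plot of hepatocyte transcripts against depth shows that the hepatocyte-rich barcodes lay at both low and high UMI counts.

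**Figure D5:**
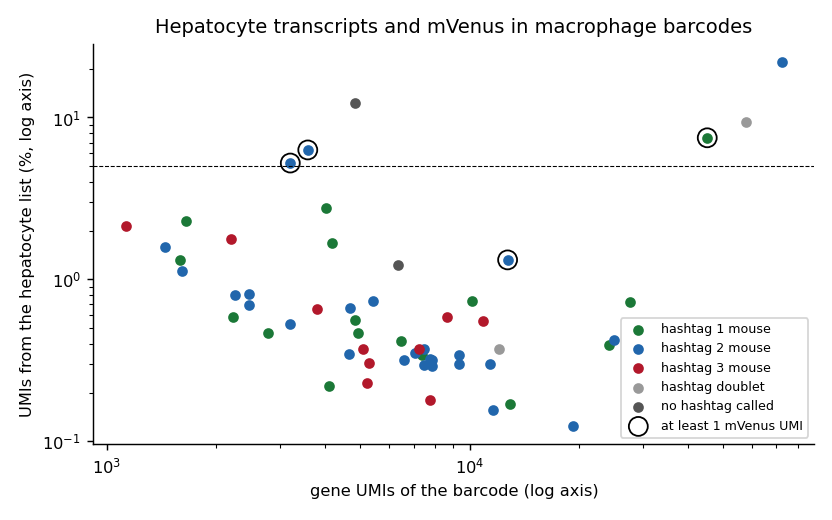
Share of UMIs from the 10-gene hepatocyte list against total gene UMIs for the 56 macrophages (log axes), coloured by hashtag, with rings for at least 1 mVenus UMI. The dashed line marks 5%, and 6 barcodes lie above it, the highest at 22.0% and 72352 UMIs.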

How the data were processed

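Single-cell 3′ libraries (10x Genomics v3) of pooled mVenus-sorted liver cells and of their hashtags were used. The authors deposited both as raw UMI counts per barcode. The gene counts were made with Cell Ranger (2.1.1 in the submitters' processing notes, 3.0.2 in the matrix header) on mm10. CITE-seq-Count was used by the authors for hashtags. The members and lists were chosen with earlier results of these data known. Hashtag calls came from HTODemux (Seurat 5.3.0, quantile 0.99). Doublets between mice were found by hashtag only, so doublets within a mouse remain. Clusters came from scanpy 1.11.5 (2000 variable genes, 30 components, 15 neighbours, resolution 0.5; 15 clusters), and marker rules named them. Sums of counts were scaled to CPM without the mVenus and Nras rows. Ratios were taken on log2(CPM + 1), which understates low genes, among genes at 10 CPM or more. Calls needed 2-fold in each mouse. The fold calls were tested on simulated counts drawn from a single shared profile. These had no spread between cells or mice, so that spread was not covered. Genes were named by rule: the 8 markers, the 25 genes outside them with the highest smallest ratio at 50 CPM or more, the 5 furthest in each direction per pairing, the 4 of each list with the highest level and those at 0, and 10 per direction for the class split. For the last, at least 5 cells and 50 CPM were asked for after the data were seen. Other list members were named after their values were seen. Positions come from GENCODE M21 and promoters from RefSeq (GRCm38.p6). All 8 genes looked up matched. The deposited table and the study's methods pair hashtags with mice differently, and both pairings were computed from the same counts. Alternatives were TMM scaling, thinning, other filters, the other pairing and leaving out mice or barcodes. Some list members are not reported here.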

Additional observations from a re-analysis of the deposited data

How the results depend on the processing

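The count of genes higher in macrophages than in all other barcodes (567) was 377 with each barcode thinned to 2000 UMIs, where 1892 were lower, and 769 to 970 with 1 mouse left out (946 without hashtag 1 and 970 without hashtag 3). Over the alternatives the count of lower genes, 360 as reported, ran from 294 to 1892. It was 687 higher and 749 lower without barcodes over 5% hepatocyte-list UMIs. The count of genes apart between G12V and D38A mice (2136) was 4252 in the methods' pairing and 3322 to 5445 with 1 G12V mouse left out, where 1 pair of mice then decides each call. It could not be computed without hashtag 1, the single D38A mouse of the deposited pairing. The mVenus level (32.1 CPM) was 9.81 CPM after thinning and 17.9 CPM in the cluster that held most macrophages. The share with at least 2 Kupffer cell markers (62.5%) was 78.0% among members with at least 6 of the 8 defining markers, which by construction carry more of them. The members numbered 41 to 56 under the other rules. All remaining alternatives moved the counts of higher genes, of genes apart and of members by less than 1.5 times and shares and levels by less than their intervals. Settings that left out hepatocyte-rich barcodes or kept the main cluster were chosen after the data were seen. No paired analysis was possible because none of these results comes from a test. Macrophages and other barcodes, and the macrophage classes, were compared within each mouse by fold only. Depth limits what is said of the 10 macrophages of hashtag 3, where 1 UMI is worth 17.5 CPM.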
